A study of Mus musculus with 18 samples.

Results

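Dietary fat was compared in the livers of mice that had lived with a running wheel, with 3 high-fat runners (HF+Ex) set against 3 low-fat runners (LF+Ex), 6 of the 18 arrays of the series. The HF+Ex mice ate a diet with 60% fat and the LF+Ex mice a diet with 10% fat, both without limit. All 6 were male mice of the inbred strain C57BL/6J, housed singly, put on their diet at 5 weeks of age and sampled at 62 weeks. After a period with a locked wheel they could run at will, so that running was voluntary and its amount was not set by the design. Distance run, body weight and food intake were not analysed here. The mice with no wheel on the same diets (HF and LF, 3 each) are used below to ask whether the effect of fat differed with a wheel, and the calorie-restricted groups (LF+CR and HF+CR, 3 each) enter only the shared estimate of spread. Members of the comparison were chosen by the sample titles alone.

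The liver takes up fatty acids from blood and also makes its own. It burns them or stores them as triglyceride in lipid droplets, whose surface proteins control their size and breakdown. Cholesterol is made from acetyl-CoA through the mevalonate pathway, under the transcription factor SREBP2. In rodents many liver genes also differ between the sexes, because pulses of growth hormone, which act through the transcription factor STAT5b, keep male-biased genes on and many female-biased genes off.

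Liver RNA was measured on Affymetrix Mouse Genome 430 2.0 arrays, and the values are intensities per probe set. A gene was represented by its brightest probe set and tested if at least 3 of the 18 arrays had it above their own 40th percentile, here called the dim threshold (88.22 to 97.574). Differences are log2 fold changes of the intensity plus 16, HF+Ex minus LF+Ex, tested with limma over 14201 genes at a Benjamini-Hochberg adjusted p of 0.05. "Rose" and "fell" are used only for genes past that threshold. The files hold 1 array for each of 3 mice in a group. The p-values set the difference against the spread between mice of the same group, pooled over all 18 arrays and not taken from the runners alone. In whole liver, fewer cells of a type and less RNA per cell cannot be told apart.

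Some of the 6 arrays stood apart in ways the diet does not name. Clps, which encodes the pancreatic enzyme cofactor colipase, read 599 on HF+Ex 1 and 215 on LF+Ex 3, against 53.0 to 62.1 on the other 4. It also read 260 on LF 1 and 386 on LF+CR 1. These 4 arrays with high Clps are called below the arrays with pancreatic transcripts. The HF+CR arrays are not among them, with Clps at 57.7 to 61.8, although their pancreatic acinar markers summed to 2290 to 2910, against 2587 on LF+Ex 3. On the first principal component of all 18 arrays, with 27% of the variance, HF+Ex 3 stood at 19.1 and was most like HF 1 (r = 0.995), while HF+Ex 1 and 2 stood at 3.2 and -1.5 and the LF+Ex arrays between -12.7 and -4.0. The clock genes Arntl and Dbp, which peak at opposite times of day, differed by -0.66 (log2 Arntl minus log2 Dbp) on LF+Ex 3 and by -3.78 to -3.28 on the other 5. Skeletal muscle markers summed to 1791 on HF+Ex 2 and to 452 to 558 on the other 5. B and plasma cell markers summed to 1416 on HF+Ex 1 and 1475 on LF+Ex 3, against 545 to 588 on the other 4. The part of such cells in the values below was not tested. Hepatocyte markers summed to 55927 to 59867 in HF+Ex and 55657 to 59071 in LF+Ex.

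High-fat and low-fat runners differed in 248 of 14201 genes (1.75%), of which 152 (1.07%) rose and 96 (0.676%) fell in HF+Ex. These shares are the background for the counts of list members below. The 3 HF+Ex arrays lay wholly above or wholly below the 3 LF+Ex arrays in all 248, as they did in 22.7% of all genes tested. The typical change was small: the median absolute log2 fold change of the 248 was 0.49, and 21 rose and 11 fell by at least 1. Across all genes tested the median log2 fold change was -0.01. An unadjusted p under 0.05 (limma) was reached by 2246 of the 14201 genes, the background for such counts below. The largest rises were in Cyp2b9, a cytochrome P450 of female-biased expression, and Cidea, a lipid droplet protein. The largest falls were in Hsd3b5, a male-biased steroid-metabolizing enzyme, and Slco1a1, a male-biased organic anion transporter. The count depended on single mice: it was 77 without LF+Ex 1, 133 without LF+Ex 3, 111 without HF+Ex 1 and 96 without HF+Ex 3, against 219 without LF+Ex 2 and 182 without HF+Ex 2. Without the 4 arrays with pancreatic transcripts, which leaves 2 HF+Ex and 2 LF+Ex arrays, 24 genes rose and 30 fell. Of the 248 genes, 62 (33 higher and 29 lower) passed without each of the 6 arrays in turn.

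**Figure D1:**
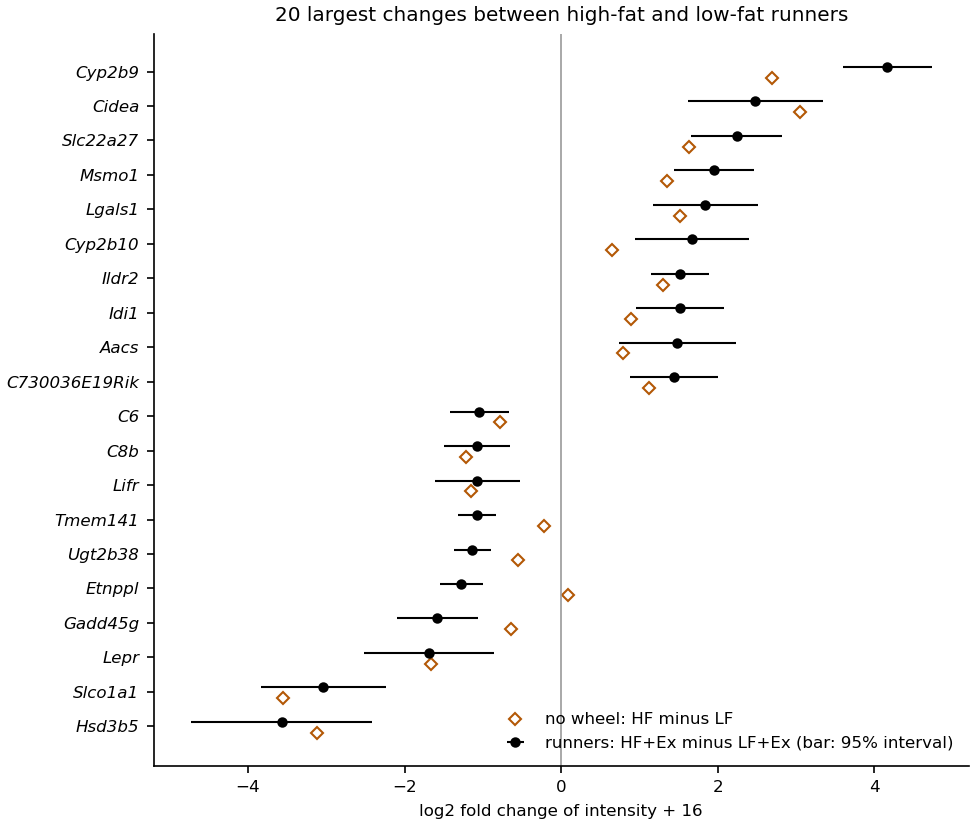
Log2 fold changes of the 10 largest rises and 10 largest falls among the 248 changed genes (filled circles, HF+Ex minus LF+Ex, with 95% intervals), with the same genes without a wheel (open diamonds, HF minus LF). Cyp2b9 stands at 4.16 and Hsd3b5 at -3.57 in runners, and Etnppl is the gene whose 2 markers lie on opposite sides of 0.

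Several genes that are normally higher in female liver rose in the high-fat runners, all of which were male. Of 31 listed female-biased genes 8 had no probe set of their own, 2 were dim and 21 were tested. Of these 7 rose and 0 fell, against 1.07% and 0.676% of all genes tested, with a median log2 fold change of 0.42. Cyp2b9 read 1998, 1713 and 1448 in HF+Ex, against 68.8, 73.2 and 101 in LF+Ex. Every HF+Ex mouse was far above every LF+Ex mouse, and of the LF+Ex arrays only LF+Ex 3 was above the dim threshold. The log2 fold change was 4.16 (SE 0.268, adjusted p = 8.77e-07), and 4.40 and 3.62 with offsets of 1 and 64. Slc22a27, an organic anion transporter family member, read 541, 382 and 456 in HF+Ex, against 79.3, 65.3 and 112 in LF+Ex (log2 2.24, SE 0.271, adjusted p = 0.000459). As with Cyp2b9, LF+Ex 3 alone was above the dim threshold among the LF+Ex arrays, and the groups lay far apart.

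Cyp2b13, a close relative of Cyp2b9, read 228, 202 and 257 in HF+Ex, against 82.3, 81.9 and 70.6 in LF+Ex, where no array was above the dim threshold. It was therefore at least 2.49-fold higher in HF+Ex (adjusted p = 0.0401), with the arrays of each group close to each other. Cyp2b10, the member of the family induced by the xenobiotic receptor CAR, read 387, 138 and 149 in HF+Ex, against 50.1, 54.1 and 52.6 in LF+Ex. HF+Ex 1 was above the other 2 high-fat runners, and no LF+Ex array was above the dim threshold with this probe set. Cyp2b10 was therefore at least 2.18-fold higher in HF+Ex by this probe set (log2 1.67 as tested, SE 0.343, adjusted p = 0.0209). The other probe sets of Cyp2b10 had log2 fold changes of 1.22, at means of 165 in HF+Ex and 54.6 in LF+Ex, and of 0.60, at means of 160 in HF+Ex and 95.1 in LF+Ex. Cyp2c38, a cytochrome P450, averaged 1362 ± 90.3 in HF+Ex and 736 ± 101 in LF+Ex (SD, n = 3 each, log2 0.88, adjusted p = 0.0205). The other members that rose were Atp6v0d2, a subunit of the vacuolar proton pump, at 0.57, and Fmo1, a flavin-containing monooxygenase, at 0.33. Both were named after their values were seen. Cux2, a transcription factor of female liver, had a log2 fold change of -0.09, and Sult3a1, a sulfotransferase, read 202 on HF+Ex 1 and 44.4 to 51.6 on the other 5 arrays.

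Female-biased members that rose numbered 3 without LF+Ex 1, 4 without LF+Ex 3, 3 without HF+Ex 1, 4 without HF+Ex 3 and 3 without the 4 arrays with pancreatic transcripts. Cyp2b9 and Slc22a27 passed in every alternative run. Cyp2b13 lost the call without each of the 6 arrays in turn (adjusted p = 0.0692 to 0.144). Cyp2b10 did not pass without LF+Ex 1, LF+Ex 3 or HF+Ex 1 (0.0622 to 0.101), and Cyp2c38 did not pass without LF+Ex 1, LF+Ex 2, HF+Ex 1 or HF+Ex 3 (0.0576 to 0.0988).

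The promoters of the 3 Cyp2b genes are shown because all 3 genes rose. Probe sets match transcripts, so these windows, mostly before the start site, cannot show whether the probe sets share sequence. Each window runs from 250 bases before to 50 bases after the RefSeq start site on the plus strand of chromosome 7 in GRCm38.p6, and is written 5′ to 3′. Capitals mark the 2 positions, at -203 and -147 from the start site, at which the first 2 windows differ. Cyp2b9 lies at chr7:26173159-26173458, Cyp2b13 at chr7:26061245-26061544 and Cyp2b10 at chr7:25897408-25897707.
Cyp2b9: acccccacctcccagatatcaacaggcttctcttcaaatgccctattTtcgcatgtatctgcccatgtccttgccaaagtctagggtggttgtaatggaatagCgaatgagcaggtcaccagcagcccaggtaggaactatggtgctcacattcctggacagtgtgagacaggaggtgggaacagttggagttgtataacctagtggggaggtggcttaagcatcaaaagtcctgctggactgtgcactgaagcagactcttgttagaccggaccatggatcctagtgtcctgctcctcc
Cyp2b13: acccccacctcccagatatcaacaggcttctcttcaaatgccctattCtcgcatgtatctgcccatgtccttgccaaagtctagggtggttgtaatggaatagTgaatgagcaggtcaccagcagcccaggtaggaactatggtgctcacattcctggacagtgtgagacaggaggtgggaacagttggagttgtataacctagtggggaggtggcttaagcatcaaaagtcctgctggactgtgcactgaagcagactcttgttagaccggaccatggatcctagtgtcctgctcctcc
Cyp2b10: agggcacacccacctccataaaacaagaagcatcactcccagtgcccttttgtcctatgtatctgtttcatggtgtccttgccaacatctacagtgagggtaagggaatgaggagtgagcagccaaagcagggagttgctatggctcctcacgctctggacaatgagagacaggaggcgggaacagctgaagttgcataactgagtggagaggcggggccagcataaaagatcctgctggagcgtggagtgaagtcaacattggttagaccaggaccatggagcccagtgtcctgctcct
The Cyp2b9 and Cyp2b13 windows were identical at 298 of 300 bases (99.3%), and each was identical to Cyp2b10 at 223 of 311 alignment columns (71.7%). The STAT5 motif TTCNNNGAA, which reads the same on both strands, was in none of the 3 windows. It was in 0 of 6 promoters of the male-biased genes that fell, in 0 of 5 promoters of the female-biased genes that rose, and in 13 of 192 promoters of all changed genes that had one in the table (6.77%), against 8.36% of the promoters of genes tested. These are counts of letters in windows of 300 bases.

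The male-biased genes that changed all fell. Of 26 listed, 6 had no probe set of their own and 20 were tested. Of these 0 rose and 7 fell, against 1.07% and 0.676% of all genes tested. The median log2 fold change was -0.44, with 17 of 20 below 0. Hsd3b5, which reduces 3-ketosteroids in male liver, read 79.9, 160 and 77.8 in HF+Ex, against 1878, 2150 and 632 in LF+Ex. HF+Ex 2 was the only high-fat runner above the dim threshold, and LF+Ex 3 was the lowest of its group (log2 -3.57, SE 0.545, adjusted p = 0.00281). Slco1a1, which takes up organic anions and steroid conjugates, read 311, 577 and 105 in HF+Ex, against 2338, 2619 and 2078 in LF+Ex. The high-fat runners differed among themselves, with HF+Ex 2 the highest and HF+Ex 3 near the dim threshold, and all were below every LF+Ex mouse (log2 -3.04, SE 0.375, adjusted p = 0.000505). Ugt2b38, a UDP-glucuronosyltransferase, read 91.1, 91.6 and 76.2 in HF+Ex, against 254, 179 and 197 in LF+Ex. No HF+Ex array was above the dim threshold, so that it was at least 2.29-fold lower in HF+Ex (adjusted p = 0.000116).

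The complement genes C8b and C6, whose products are parts of the membrane attack complex, are on the male-biased list as well. C8b read 904, 886 and 572 in HF+Ex, against 1617, 1638 and 1652 in LF+Ex (log2 -1.07, SE 0.198, adjusted p = 0.0115), with the LF+Ex mice almost equal and HF+Ex 3 the lowest. C6 read 872, 1017 and 1076 in HF+Ex, against 2229, 2049 and 1896 in LF+Ex (log2 -1.05, SE 0.177, adjusted p = 0.00642). Cyp7b1, the oxysterol 7-alpha-hydroxylase, read 2896, 3436 and 1898 in HF+Ex, against 5124, 4860 and 4079 in LF+Ex (log2 -0.81, SE 0.181, adjusted p = 0.0345). Gstp1, a glutathione transferase, read 6880, 7220 and 8515 in HF+Ex, against 12699, 11773 and 11822 in LF+Ex (log2 -0.69, SE 0.116, adjusted p = 0.00642). In these 4 genes, as in all 248 that changed, the groups did not overlap. The fatty acid elongase Elovl3 read 931, 2251 and 594 in HF+Ex, against 3464, 3294 and 4739 in LF+Ex, and its log2 fold change of -1.80 did not pass (adjusted p = 0.0652). Cyp4a12a, a male-biased fatty acid hydroxylase, had a log2 fold change of -1.42 (adjusted p = 0.199), with HF+Ex 2 the lowest at 589.

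Without LF+Ex 1 or without HF+Ex 3 the number of male-biased genes that fell was 5, and without HF+Ex 2 it was 9. Leaving out the 4 arrays with pancreatic transcripts gave 4, and it was 7 without HF+Ex 3, HF 1 and LF+CR 2, which lay farthest out on the first component, and 9 with the clock difference as a covariate. Hsd3b5, Slco1a1, Ugt2b38 and C6 passed in every alternative run. C8b did not pass without LF+Ex 1 or HF+Ex 3 (adjusted p = 0.0519 and 0.0575), and Cyp7b1 passed only without HF+Ex 2 among the 6 (otherwise 0.0503 to 0.174). Without the arrays with pancreatic transcripts C8b (0.0517), Cyp7b1 (0.121) and Gstp1 (0.110) did not pass.

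**Figure D2:**
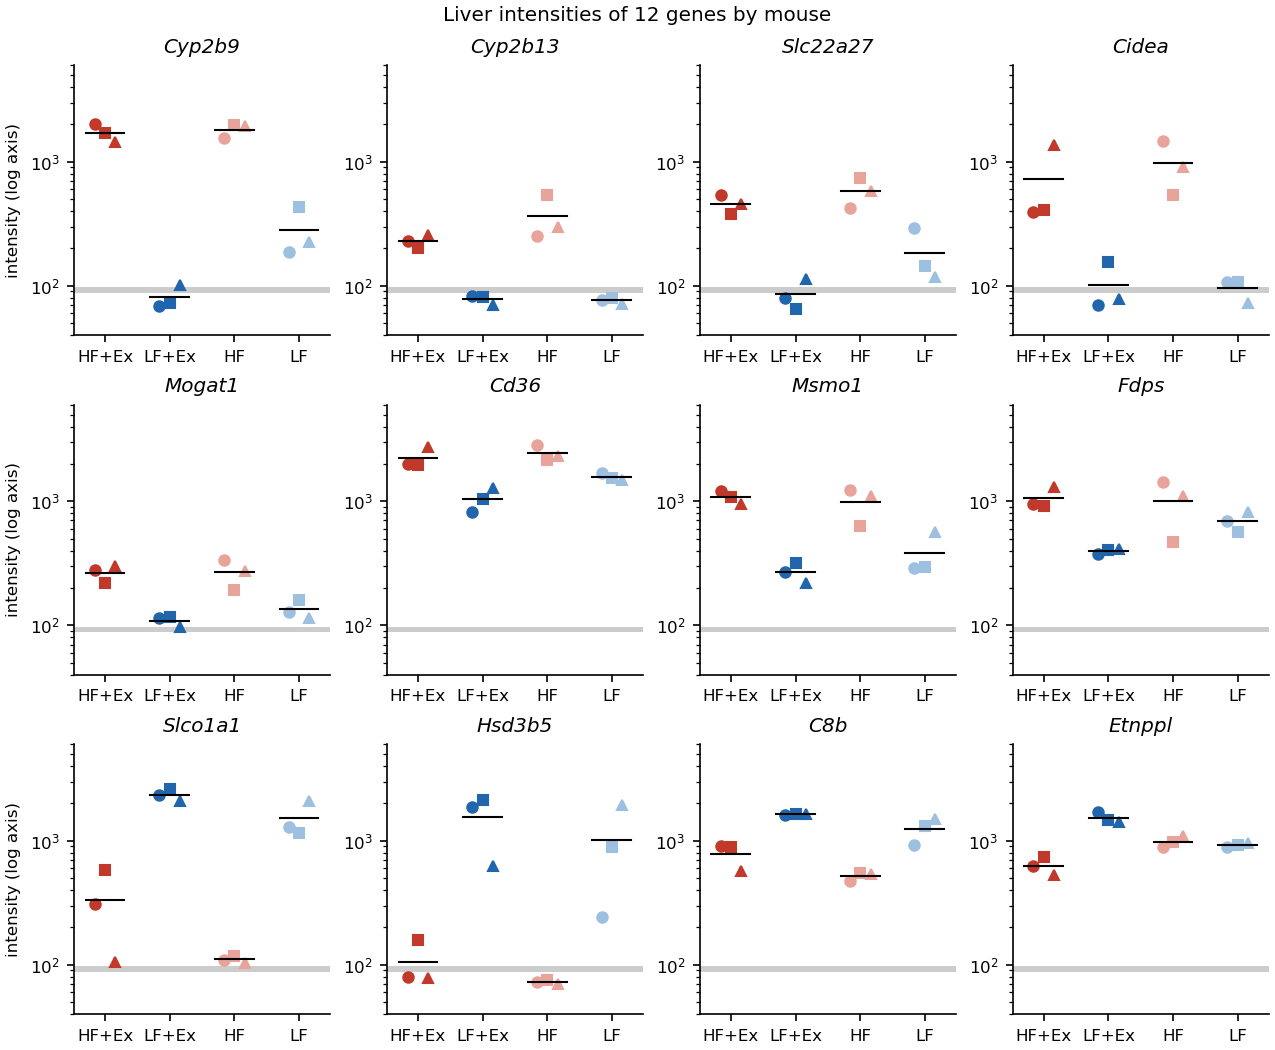
Intensities (log axis) of 12 genes in each mouse, with the high-fat and low-fat runners on the left of each panel and the mice with no wheel on the right; circles, squares and triangles are replicates 1, 2 and 3, black lines are means, and the grey band is the dim threshold. Hsd3b5 in 2 of 3 HF+Ex mice and in HF, and Cyp2b9 in LF+Ex, sit at or near the band.

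Of 26 tested genes of growth hormone, insulin and IGF1 signalling 2 fell and 0 rose, against 0.676% and 1.07% of all genes tested. The median log2 fold change was -0.10 and 21 of 26 were below 0. The groups did not overlap in 10, HF+Ex being lower in 8, against 10.9% of all genes tested, and higher in 2. Lepr, the leptin receptor, read 74.5, 71.4 and 94.1 in HF+Ex, against 204, 347 and 345 in LF+Ex (log2 -1.68, SE 0.391, adjusted p = 0.0401). Only HF+Ex 3 was above the dim threshold among the high-fat runners, and other probe sets of Lepr moved by -1.40 and -0.58. Igfbp2, which binds insulin-like growth factors, read 1995, 2680 and 1468 in HF+Ex, against 3646, 3341 and 3659 in LF+Ex (log2 -0.83, SE 0.196, adjusted p = 0.0433). Both calls depended on single arrays: Lepr lost the call without each of the 6 arrays in turn (adjusted p = 0.0689 to 0.124), and Igfbp2 passed only without HF+Ex 2 (otherwise 0.0742 to 0.190). Socs2, which growth hormone induces and which restrains its receptor, read 325, 247 and 279 in HF+Ex, against 444, 726 and 476 in LF+Ex. These groups did not overlap, yet the log2 fold change of -0.89 did not pass (adjusted p = 0.236). Igf1, Ghr and Stat5b, the hormone's main target, receptor and transducer, had log2 fold changes of -0.09, 0.16 and -0.08. Egfr, the epidermal growth factor receptor, read 1149, 1830 and 1161 in HF+Ex, against 1249, 1622 and 1803 in LF+Ex (log2 -0.19, adjusted p = 0.825), with overlapping groups, while the log2 fold changes of its 5 other probe sets ran from -1.15 to -0.06.

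Genes of lipid droplets and fatty acid uptake held a few members that rose. Of 30 listed, 1 had no probe set of its own and 29 were tested. Of these 5 rose and 0 fell, against 1.07% and 0.676% of all genes tested. The median of the list was 0.07, with members from -1.39 to 2.48. The groups did not overlap in 14 of the 29, HF+Ex being higher in 9 and lower in 5, against 22.7% of all genes tested. An unadjusted p under 0.05 (limma) was reached by 13 of the 29, against 2246 of all 14201. Cidea, which promotes the fusion of lipid droplets, read 394, 409 and 1361 in HF+Ex, against 70.0, 154 and 78.3 in LF+Ex (log2 2.48, SE 0.404, adjusted p = 0.00513). HF+Ex 3 was far above the other high-fat runners, and LF+Ex 2 alone was above the dim threshold among the low-fat runners. Mogat1, which makes diacylglycerol from monoacylglycerol, read 279, 218 and 301 in HF+Ex, against 114, 116 and 96.4 in LF+Ex (log2 1.17, SE 0.161, adjusted p = 0.00151). Cd36, the fatty acid uptake receptor, read 2003, 1954 and 2718 in HF+Ex, against 820, 1047 and 1280 in LF+Ex (log2 1.08, SE 0.180, adjusted p = 0.00574), and its other probe sets moved by 1.04 and 1.12. Pparg, a nuclear receptor that drives lipid storage, read 345, 322 and 415 in HF+Ex, against 174, 175 and 234 in LF+Ex (log2 0.85, SE 0.172, adjusted p = 0.0197). As in all 248 changed genes, the groups did not overlap in these 4, and HF+Ex 3 was the highest mouse in each.

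Fitm1, a protein of lipid droplet formation, was the other member that rose (log2 0.74, adjusted p = 0.0379), named after its value was seen. Cidec, a relative of Cidea, read 247, 188 and 618 in HF+Ex, against 93.8, 144 and 97.0 in LF+Ex (log2 1.37, adjusted p = 0.0673), and did not pass. Plin4, a droplet coat protein, read 340, 364 and 495 in HF+Ex, against 224, 304 and 241 in LF+Ex (log2 0.60, adjusted p = 0.0648). Plin2, the main droplet coat protein of hepatocytes, averaged 6119 ± 1068 in HF+Ex and 6073 ± 855 in LF+Ex (log2 0.01, 95% interval -0.33 to 0.34). The number of members that rose was 3 without LF+Ex 1, 3 without HF+Ex 1, 3 without HF+Ex 3 and 1 without the 4 arrays with pancreatic transcripts, where Cidea stood at 2.66 (adjusted p = 0.0517) and Mogat1 at 1.06 (0.0577). Cd36 passed in every alternative run. Pparg did not pass without LF+Ex 1, LF+Ex 2, HF+Ex 1 or HF+Ex 3 (0.0572 to 0.116).

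Genes of cholesterol synthesis were higher in the high-fat runners at several steps. Of 25 listed genes 5 had no probe set of their own and 20 were tested. Of these 5 rose and 0 fell, against 1.07% and 0.676% of all genes tested. The median log2 fold change was 0.39, with 17 of 20 above 0. Msmo1, which removes methyl groups from sterol intermediates, read 1216, 1075 and 954 in HF+Ex, against 270, 316 and 220 in LF+Ex (log2 1.95, SE 0.242, adjusted p = 0.000505). Idi1, which makes the isoprene unit dimethylallyl diphosphate, read 601, 603 and 659 in HF+Ex, against 209, 201 and 210 in LF+Ex (log2 1.52, SE 0.266, adjusted p = 0.0081). Both groups were tight in Idi1 and lay 2.86-fold apart on the same scale. Fdps, which joins isoprene units to farnesyl diphosphate, read 955, 909 and 1305 in HF+Ex, against 379, 402 and 415 in LF+Ex (log2 1.35, SE 0.272, adjusted p = 0.0181). The other probe set of Fdps moved by 0.06, at means of 91.07 in HF+Ex and 86.85 in LF+Ex. Sqle, the squalene epoxidase, read 337, 250 and 387 in HF+Ex, against 124, 124 and 109 in LF+Ex (log2 1.31, SE 0.304, adjusted p = 0.0401). No HF+Ex mouse overlapped the LF+Ex mice in any of the 4, as in all 248 changed genes.

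Mvk, the mevalonate kinase, also rose (log2 0.38, adjusted p = 0.0385), named after its value was seen. Hmgcs1, an early enzyme of the pathway, read 1571, 1845 and 2024 in HF+Ex, against 1191, 834 and 1415 in LF+Ex (log2 0.68, adjusted p = 0.158). Insig1, the sterol-sensing brake on SREBP processing, read 545, 472 and 438 in HF+Ex, against 374, 356 and 353 in LF+Ex (log2 0.40, adjusted p = 0.0652). The groups did not overlap in 14 of the 20 members, HF+Ex being higher in all 14, against 11.8% of all genes tested. The count of members that rose was 2 without LF+Ex 1, 2 without LF+Ex 3, 2 without HF+Ex 1, 2 without HF+Ex 3 and 1 without the arrays with pancreatic transcripts, the last being Msmo1, which passed in every alternative run. Idi1 stood at 1.55 without those arrays (adjusted p = 0.112). Fdps did not pass without LF+Ex 1, LF+Ex 3, HF+Ex 1 or HF+Ex 3 (0.0510 to 0.0938), and Sqle passed only without HF+Ex 2 (otherwise 0.0777 to 0.156). Aacs, the acetoacetyl-CoA synthetase that feeds ketone bodies into lipid synthesis, read 875, 627 and 916 in HF+Ex, against 265, 487 and 157 in LF+Ex (log2 1.48, SE 0.350, adjusted p = 0.0433). LF+Ex 2 came nearest to the high-fat runners, and the call held only without LF+Ex 2 among the 6 (otherwise 0.0563 to 0.173). Other probe sets of Aacs moved by 1.12 and 0.14.

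Of 26 tested genes of fatty acid and triglyceride synthesis 1, Fasn, rose and 0 fell, against 1.07% and 0.676% of all genes tested. The median log2 fold change was 0.08. The groups did not overlap, with HF+Ex higher in 5 and lower in 2, against 11.8% and 10.9% of all genes tested. An unadjusted p under 0.05 (limma) was reached by 8 of the 26, against 2246 of all 14201. Fasn, the fatty acid synthase, read 778, 816 and 1179 in HF+Ex, against 467, 503 and 482 in LF+Ex (log2 0.89, SE 0.188, adjusted p = 0.0254). It did not pass without LF+Ex 1, LF+Ex 2, LF+Ex 3 or HF+Ex 3 (adjusted p = 0.0507 to 0.118). Srebf1, the regulator of the pathway, read 1024, 910 and 949 in HF+Ex, against 633, 799 and 450 in LF+Ex (log2 0.64, adjusted p = 0.110). Acly, which supplies cytosolic acetyl-CoA, averaged 886 ± 103 in HF+Ex and 818 ± 7.78 in LF+Ex (log2 0.11, 95% interval -0.20 to 0.41). Scd1, the stearoyl-CoA desaturase, averaged 10966 ± 2205 in HF+Ex and 13559 ± 1093 in LF+Ex (log2 -0.32, adjusted p = 0.148). Thrsp, a lipogenic regulator, read 4090, 1251 and 2978 in HF+Ex, against 493, 1221 and 382 in LF+Ex. HF+Ex 2 and LF+Ex 2 read nearly alike, and the log2 fold change of 1.98 did not pass (adjusted p = 0.0522).

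**Figure D3:**
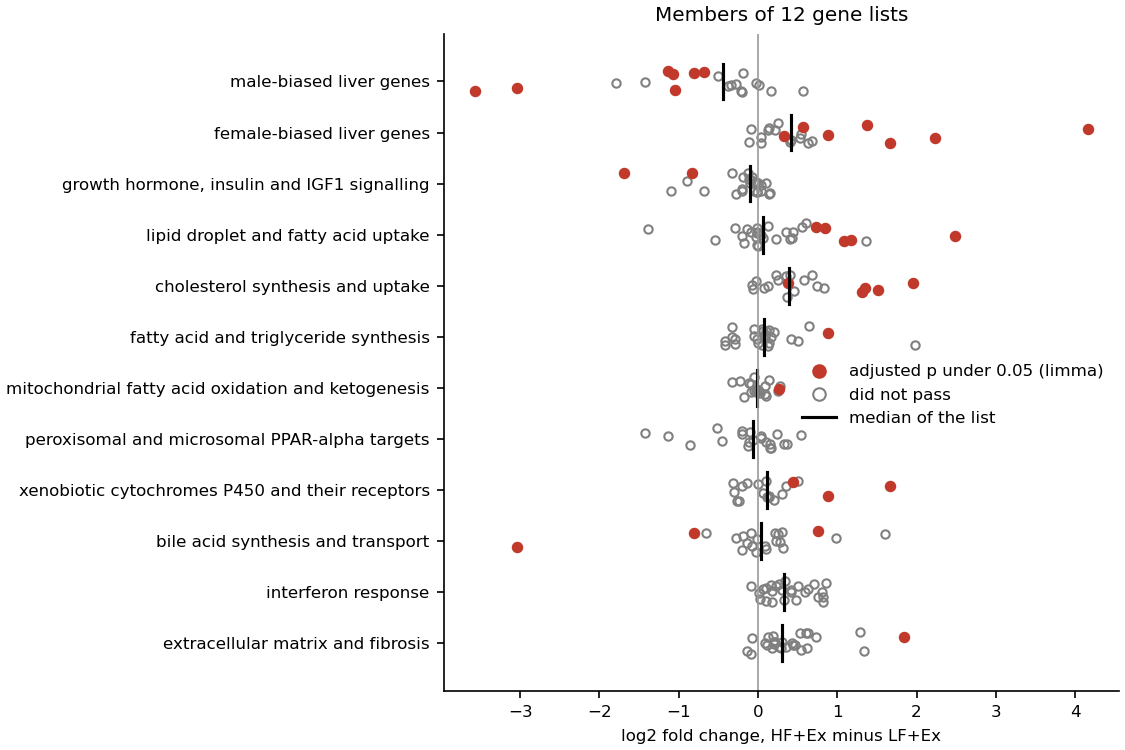
Log2 fold changes (HF+Ex minus LF+Ex) of the tested members of 12 gene lists, with genes past the threshold filled, the others open, and the list median as a black bar. The male-biased list has its 7 filled points below 0 and the female-biased list its 7 above 0, while the medians of both oxidation lists lie near 0 with members on both sides.

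Genes of fat burning had medians near 0, with members on both sides. Of 20 tested genes of mitochondrial fatty acid oxidation and ketogenesis, 1 rose and 0 fell, against 1.07% and 0.676% of all genes tested. The median was -0.01, and the groups did not overlap in 9 (HF+Ex higher in 6 and lower in 3), against 22.7% of all genes tested. The gene that rose was Hadh, a dehydrogenase of beta-oxidation, with a log2 fold change of 0.27 (adjusted p = 0.0168). Cpt1a, the gatekeeper of mitochondrial entry, averaged 3497 ± 254 in HF+Ex and 3242 ± 119 in LF+Ex (log2 0.11, 95% interval -0.12 to 0.33). None of the 21 tested peroxisomal and microsomal targets of PPAR-alpha passed (limma, lowest adjusted p = 0.0701, median -0.07). At an unadjusted p under 0.05 there were 9 of these targets, against 2246 of all 14201 genes. Their log2 fold changes ran from -1.42 to 0.54, and the groups did not overlap in 11 of the 21, HF+Ex being higher in 6 and lower in 5. Ppara itself had a log2 fold change of 0.32 (adjusted p = 0.615), and Cyp4a14, a fatty acid hydroxylase, one of -0.52 (adjusted p = 0.0993), its 3 HF+Ex arrays lying below the LF+Ex arrays. Pdk4, which blocks glucose oxidation in fasting, read 105, 180 and 148 in HF+Ex, against 111, 103 and 492 in LF+Ex, and the hepatokine Fgf21 read 138, 246 and 237 in HF+Ex, against 161, 155 and 492 in LF+Ex. In both the high value came from LF+Ex 3 alone, the array whose clock genes stood apart, and the part of sampling time in this was not tested.

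In glucose metabolism, 1 of 17 tested genes of gluconeogenesis and the fasting response fell, against 0.676% of all genes tested. This was Tat, tyrosine aminotransferase, at 2940, 2700 and 2187 in HF+Ex, against 4106, 4200 and 3739 in LF+Ex (log2 -0.63, SE 0.121, adjusted p = 0.0144). It did not pass without LF+Ex 1 or HF+Ex 3 (adjusted p = 0.0785 and 0.0734). Pck1, the cytosolic PEP carboxykinase, read 5884, 4061 and 4634 in HF+Ex, against 7469, 7655 and 6757 in LF+Ex (log2 -0.60, adjusted p = 0.0652), and another probe set moved by -1.14. G6pc, the catalytic subunit of glucose-6-phosphatase, read 2214, 1791 and 1751 in HF+Ex, against 2590, 2603 and 3369 in LF+Ex (log2 -0.57, adjusted p = 0.417). All 3 genes had groups that did not overlap, HF+Ex being lower, as in 10.9% of all genes tested.

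Bile acid genes split. Of 22 tested, 1 rose and 2 fell, against 1.07% and 0.676% of all genes tested. Those that fell were Slco1a1 and Cyp7b1, also male-biased. Abcc3, which exports conjugates across the basolateral membrane, read 2112, 2263 and 2420 in HF+Ex, against 1416, 1249 and 1330 in LF+Ex (log2 0.76, SE 0.131, adjusted p = 0.00743). Without the arrays with pancreatic transcripts it stood at 0.81 and did not pass (adjusted p = 0.0841). Cyp7a1, the rate-limiting enzyme of bile acid synthesis, read 2293, 2017 and 1388 in HF+Ex, against 309, 1324 and 527 in LF+Ex. HF+Ex 3 and LF+Ex 2 came close to each other, and the log2 fold change of 1.60 did not pass (adjusted p = 0.0855). Of 19 tested xenobiotic P450 genes and receptors 3 rose, against 1.07% of all genes tested. They were Cyp2b10 and Cyp2c38, which are also on the female-biased list, and Cyp2c39. The last read 168, 137 and 155 in HF+Ex, against 106, 107 and 113 in LF+Ex (log2 0.44, SE 0.0988, adjusted p = 0.0345). Cyp2c39 passed only without HF+Ex 2 among the 6 arrays (otherwise 0.0707 to 0.155). The drug-metabolizing enzymes Cyp3a11, Cyp2e1 and Cyp1a2 had log2 fold changes of 0.30, 0.06 and 0.10. Of 30 tested NRF2 targets and glutathione genes 1 rose and 1 fell, against 1.07% and 0.676% of all genes tested. The median log2 fold change was 0.09, with 21 of 30 above 0. The groups did not overlap, with HF+Ex higher in 9 and lower in 1, against 11.8% and 10.9% of all genes tested. An unadjusted p under 0.05 (limma) was reached by 7 of the 30, against 2246 of all 14201. Gstp1 fell and Mgst3, a microsomal glutathione transferase, rose. It read 645, 594 and 945 in HF+Ex, against 424, 367 and 433 in LF+Ex (log2 0.79, SE 0.170, adjusted p = 0.0278). Mgst3 passed only without HF+Ex 2 (otherwise 0.056 to 0.12), and its other probe set moved by 0.02.

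Amino acid and one-carbon metabolism held small rises and a larger fall. Glul, glutamine synthetase of the cells around the central vein, read 4900, 4756 and 4794 in HF+Ex, against 3735, 3639 and 3964 in LF+Ex (log2 0.35, SE 0.0512, adjusted p = 0.00224). The fold was small, but the mice of each group agreed closely and the call held in every alternative run. Bckdhb, a subunit of the branched-chain ketoacid dehydrogenase, averaged 1625 ± 28.5 in HF+Ex and 1290 ± 56.7 in LF+Ex (log2 0.33, adjusted p = 0.0200). It did not pass without LF+Ex 1, LF+Ex 3, HF+Ex 1 or HF+Ex 3 (adjusted p = 0.0615 to 0.124). With Tat they were the 3 that changed of 27 tested genes of the urea cycle and amino acid breakdown, against 1.75% of all genes tested. Of 20 tested genes of methionine, one-carbon and choline metabolism 2 fell, against 0.676% of all genes tested. Cbs, which commits homocysteine to cysteine synthesis, read 1812, 2268 and 1637 in HF+Ex, against 2641, 2432 and 2909 in LF+Ex (log2 -0.49, SE 0.108, adjusted p = 0.0324), and did not pass without LF+Ex 1, LF+Ex 3, HF+Ex 1 or HF+Ex 3 (0.112 to 0.149). Etnppl, which breaks down phosphoethanolamine, a precursor of membrane phospholipid, read 622, 743 and 526 in HF+Ex, against 1707, 1474 and 1427 in LF+Ex. The groups were far apart relative to their spread (log2 -1.27, SE 0.127, adjusted p = 0.000116), and the other probe set of the gene moved by -0.67.

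Of the remaining largest changes, Ildr2, which encodes an immunoglobulin-like domain-containing receptor, read 823, 683 and 685 in HF+Ex, against 234, 237 and 261 in LF+Ex (log2 1.52, SE 0.172, adjusted p = 0.000295). Other probe sets of Ildr2 moved by 1.24 and 0.39. The unnamed transcript C730036E19Rik read 973, 789 and 795 in HF+Ex, against 228, 463 and 262 in LF+Ex (log2 1.44, SE 0.265, adjusted p = 0.0115), and did not pass without LF+Ex 1, LF+Ex 3 or HF+Ex 1 (0.0503 to 0.0794). Gadd45g, a stress-induced regulator of growth arrest, read 170, 83.1 and 131 in HF+Ex, against 337, 491 and 389 in LF+Ex (log2 -1.58, SE 0.242, adjusted p = 0.00281), with HF+Ex 2 below the dim threshold. Tmem141, a transmembrane protein gene, read 298, 338 and 341 in HF+Ex, against 794, 679 and 642 in LF+Ex (log2 -1.07, SE 0.113, adjusted p = 0.000132), and its other probe set moved by -0.42. Ildr2, Gadd45g and Tmem141 passed in every alternative run. Lifr, the leukaemia inhibitory factor receptor, read 793, 941 and 444 in HF+Ex, against 1523, 1478 and 1417 in LF+Ex (log2 -1.07, SE 0.254, adjusted p = 0.0433). Other probe sets of Lifr moved by -0.09 and 0.26, and the call held only without HF+Ex 2 among the 6 arrays (otherwise 0.0833 to 0.179). Apom, an apolipoprotein of high-density lipoprotein, fell as the only one of 22 tested lipoprotein genes to pass (log2 -0.68, adjusted p = 0.0081). Gbe1, the glycogen branching enzyme, rose as the only one of 18 genes of glycolysis and glycogen to pass (log2 0.58, adjusted p = 0.0181). Uqcrc2, a subunit of respiratory complex III, rose as the only one of 29 of oxidative phosphorylation to pass (log2 0.28, adjusted p = 0.0484). These 3 were named after their values were seen. Gadd45g was the 1 of 19 cell division genes to pass, and C6 and C8b the 2 of 25 complement and coagulation genes. Of 22 hepatokines and secreted factors Igfbp2 fell and Lect2 rose. The background for the counts in these lists was 1.07% of all genes tested for rises and 0.676% for falls. An unadjusted p under 0.05 (limma) was reached by 3 of 22 lipoprotein, 8 of 18 glycolysis and glycogen and 2 of 29 oxidative phosphorylation genes. It was reached by 2 of 19 cell division, 5 of 25 complement and coagulation and 9 of 22 hepatokine genes, against 2246 of all 14201. Lect2 read 2330, 2260 and 1673 in HF+Ex, against 1307, 1011 and 1162 in LF+Ex (log2 0.83, SE 0.157, adjusted p = 0.0128), and did not pass without HF+Ex 1 (0.0669).

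Matrix and inflammation genes varied among the mice of each group. Lgals1, galectin-1, a lectin of stromal and immune cells, read 2566, 2148 and 3826 in HF+Ex, against 642, 697 and 977 in LF+Ex (log2 1.84, SE 0.315, adjusted p = 0.00705), and another probe set moved by 1.90. It did not pass without the arrays with pancreatic transcripts (log2 2.07, adjusted p = 0.0578). It was the only one of 27 tested matrix genes to pass, against 1.75% of all genes tested. An unadjusted p under 0.05 (limma) was reached by 7 of the 27, against 2246 of all 14201. The median of the list was 0.30, and 24 of 27 were above 0, against 47.5% of all genes tested. Col3a1, a fibrillar collagen, read 556, 408 and 1463 in HF+Ex, against 189, 235 and 421 in LF+Ex (log2 1.33, adjusted p = 0.162), HF+Ex 3 being the highest by far. All 8 stellate and fibroblast markers had positive log2 fold changes (median 0.27; limma, 0 of 8 passed and 3 had an unadjusted p under 0.05), and their sum was 5235 to 7807 in HF+Ex and 4646 to 4987 in LF+Ex, with HF+Ex 3 the highest. Their part in the matrix values was not tested.

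None of 26 tested interferon-response genes passed (limma; lowest adjusted p = 0.0722, 10 at an unadjusted p under 0.05), with a median log2 fold change of 0.33 and 25 of 26 above 0. Ifit1, an interferon-induced antiviral protein, read 262, 220 and 327 in HF+Ex, against 115, 165 and 153 in LF+Ex (log2 0.83). None of 20 acute phase genes passed either (lowest adjusted p = 0.0652, 3 at an unadjusted p under 0.05). Lcn2, lipocalin-2, read 596, 241 and 1431 in HF+Ex, against 108, 83.2 and 235 in LF+Ex (log2 2.07, adjusted p = 0.189), so that a wide spread among the high-fat runners went with a large mean difference. The chaperone, heat shock, clock, MHC class II, lysosome and iron lists had 0 members past the threshold (limma; lowest adjusted p in that order 0.0506, 0.221, 0.0663, 0.562, 0.0582 and 0.0888). At an unadjusted p under 0.05 they had, in the same order, 6 of 27, 1 of 18, 6 of 18, 0 of 7, 2 of 24 and 5 of 15 members. For these counts, and those of the interferon and acute phase genes, the background was 2246 of all 14201 genes. Kupffer cell markers summed to 5785 to 8985 in HF+Ex and 7562 to 9398 in LF+Ex, and T and NK cell markers to 967 to 1070 in HF+Ex and 1011 to 1057 in LF+Ex. The 11 tested pancreatic acinar markers summed to 1334 to 6437 in HF+Ex and 1394 to 2587 in LF+Ex, led by HF+Ex 1 and LF+Ex 3. Of all tested marker genes only C6, on the Kupffer list as well as the male-biased one, and Tat, on the hepatocyte list, passed.

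The mice of the high-fat group were not equally far from the low-fat runners. Over the 248 changed genes, HF+Ex 3 was the high-fat runner farthest from LF+Ex in 135, HF+Ex 1 in 74 and HF+Ex 2 in 39, and HF+Ex 2 was the nearest in 128. In the 4 lists with most changes HF+Ex 2 was the farthest in none of the called members, and it was the nearest in 4 of 7 male-biased, 5 of 7 female-biased, 4 of 5 lipid droplet and 3 of 5 cholesterol genes. HF+Ex 1 was the farthest in 5 of 7 female-biased genes, and HF+Ex 3 in 5 of 7 male-biased and 4 of 5 lipid droplet genes.

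**Figure D4:**
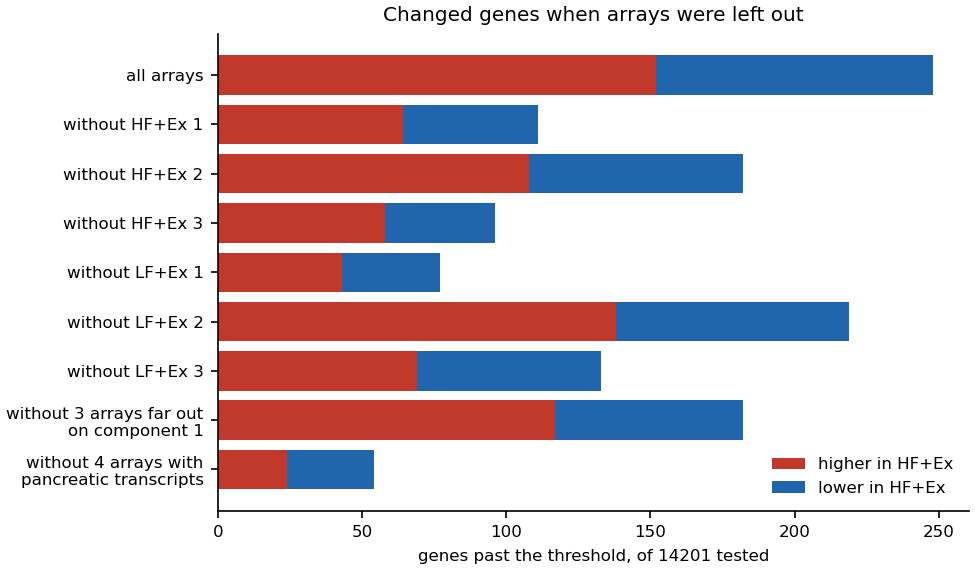
Number of genes past the threshold (bars, higher in HF+Ex and then lower) with all arrays and without each of the 6 runners' arrays or the arrays that stood apart. The count runs from 54 without the 4 arrays with pancreatic transcripts to 248 with all arrays.

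The same diets in mice with no wheel (HF minus LF) changed 127 genes (0.894%), 89 higher (0.627%) and 38 lower (0.268%). Of the 248 genes of the runners 75 were also called there, all in the same direction, which is 30.2% of the runners' calls and 59.1% of the calls without a wheel. In 244 of the 248 the log2 fold change had the same sign in both. The change was larger in runners for 214 of the 248 genes chosen in runners, and for 43 of the 127 genes chosen without a wheel, so that each set favoured the comparison it was chosen in. Cyp2b9 averaged 1720 ± 275 in HF+Ex and 81.0 ± 17.4 in LF+Ex, and 1819 ± 220 in HF and 282 ± 131 in LF (n = 3 each). The levels on the high-fat diet were close, and the difference in log2 fold change of 1.47 did not pass (unadjusted p = 0.00139). Egfr, which did not pass in runners, fell without a wheel, with 507 ± 166 in HF and 1717 ± 264 in LF (log2 -1.76, adjusted p = 0.0212), and so did Socs2 (log2 -1.93, adjusted p = 0.0180). The differences between runners and mice with no wheel in the effect of fat, 1.57 for Egfr and 1.04 for Socs2, did not pass (unadjusted p = 0.00485 and 0.0554).

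The effect of fat was tested for a difference between runners and mice with no wheel in all 14201 genes. An unadjusted p under 0.05 (limma) was reached by 358 of them, a share below 0.05, and 1 gene passed (0.00704%). This gene was Etnppl, at 630 ± 109 in HF+Ex and 1536 ± 150 in LF+Ex, against 986 ± 100 in HF and 927 ± 28.4 in LF (n = 3 each). The fall in runners had no counterpart without a wheel, where the log2 fold change was 0.08 (adjusted p = 0.767), and the difference was -1.36 (SE 0.179, adjusted p = 0.0189). LF+Ex lay above and HF+Ex below both groups without a wheel. The call did not hold without HF+Ex 1, HF+Ex 3, LF+Ex 1, LF+Ex 2, HF 2, HF 3 or any 1 of the LF arrays (adjusted p = 0.0504 to 0.0985), although the difference stayed between -1.48 and -1.24 when any of the 12 arrays was left out. Tmem141 came next among the named genes, with a difference of -0.85 (adjusted p = 0.492).

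**Figure D5:**
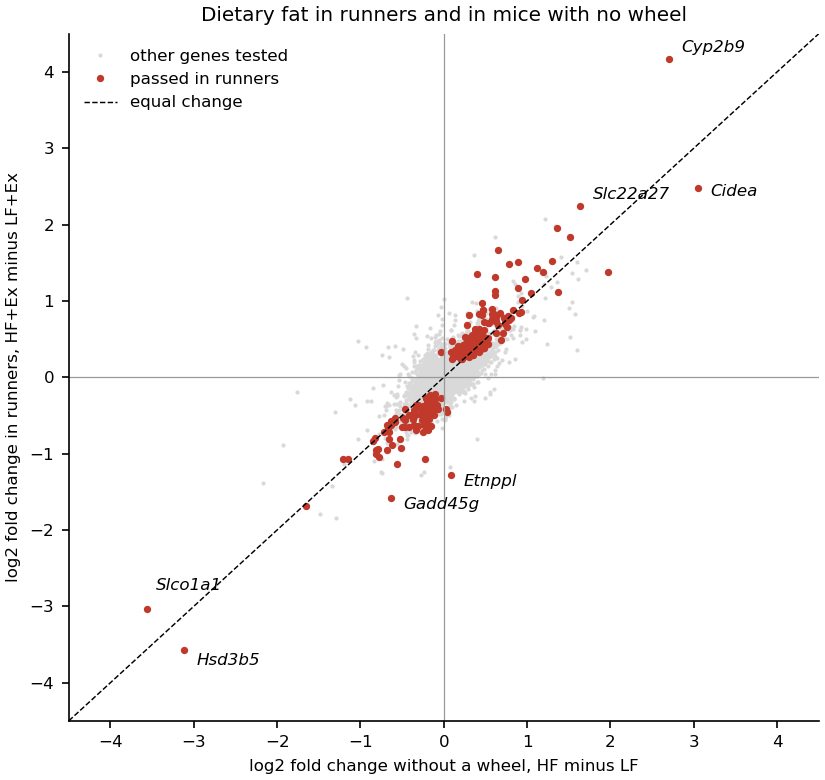
Log2 fold change by dietary fat in runners (vertical, HF+Ex minus LF+Ex) against that in mice with no wheel (horizontal, HF minus LF), with the 248 genes changed in runners in red, all other tested genes in grey and the dashed line marking equal change. Most red points share their sign on both axes, and Etnppl lies at -1.27 in runners and 0.08 without a wheel.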

How the data were processed

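The authors deposited 1 linear intensity for each probe set and array (18 arrays, values from 31.08 to 21653.94); per the labels total RNA was labelled as biotinylated cRNA, and their method of summarising and normalizing is not given in the sources used here. As the log2 medians of the arrays spanned 0.15, the values were used as deposited. Of 45101 probe sets 64 controls were left out, 34945 carried 1 gene symbol, 932 several and 9160 none, and only the first kind was used, the brightest for each of 18193 genes. After the filter on dim genes 14201 were tested and 3992 were not.

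With limma 3.58.1 in R 4.3.3, log2 of the intensity plus 16 on all 18 arrays was fitted with a mean for each group (degrees of freedom 12 residual, 3.64 prior), with the contrasts HF+Ex minus LF+Ex, HF minus LF and their difference. For arrays the number of mice limits the precision: the median SE was 0.0853, and 0.121 for the difference. A fold beside a group with no array above the dim threshold is given as "at least", with each dim value raised to its array's threshold. The pipeline was tested on simulated data. No pair of arrays held identical values. Replicate numbers are not stated to pair the mice, so no block was used. Correlations of the deviations of same-numbered HF+Ex and LF+Ex arrays were -0.07, 0.09 and 0.24, which cannot exclude a pairing or a shared batch.

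The comparison and the 42 gene lists (767 genes, of which 84 had no probe set of their own and 13 were dim) were chosen with earlier results of these data known, and support nothing independently. Genes named are the 10 that rose most and the 10 that fell most, up to 4 changed members of each list with at least 2, the members of a set of 35 genes that were tested (32), and genes that passed the test of the difference. Others were named after their values were seen, as illustrations of lists. Probe sets of families such as Cyp2b can cross-hybridize, which was not examined as no probe sequence was used. Of the 248 changed genes 116 had another probe set above the dim threshold, and in 35 of these no such probe set moved at least 25% as far. Promoter windows come from RefSeq (GRCm38.p6). Alternatives were other normalizations, offsets, filters, probe set rules, variance models and sets of arrays.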

Additional observations from a re-analysis of the deposited data

Results flagged for a closer look

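The effect of dietary fat on Etnppl, the gene of ethanolamine-phosphate phospho-lyase, differed between runners and mice with no wheel by -1.36 on the log2 scale (limma, adjusted p = 0.0189). It drew attention because it was the only gene whose diet effect differed between the 2 settings by a test of the difference itself. Intensities were 622, 743 and 526 in HF+Ex and 1707, 1474 and 1427 in LF+Ex, and 889, 981 and 1089 in HF and 897, 931 and 954 in LF. The other probe set of the gene was dimmer, at a mean of 117 in HF+Ex and 203 in LF+Ex. The mean over its probe sets gave a difference of -0.93, which did not pass.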

How the results depend on the processing

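No named gene changed direction past the threshold in any of 26 alternatives, and of the 39 named genes that passed, 13 passed in all of them (C6, Cd36, Cyp2b9, Etnppl, Gadd45g, Glul, Hsd3b5, Ildr2, Msmo1, Slc22a27, Slco1a1, Tmem141 and Ugt2b38) while 26 missed the threshold in at least 1. Without the 4 arrays with pancreatic transcripts 25 of the 39 missed it. The 248 genes became 259 with quantile normalization, 226 with centred arrays, 238 and 259 with offsets of 1 and 64, 224 and 263 with no filter and with one at the 60th percentile, 200 with the mean over probe sets and 238 with a trended robust variance. Array weights gave 1224 genes (636 higher and 588 lower), a fit of the compared groups alone 141, and a fit without the 4 arrays with pancreatic transcripts 54. The last 2 counts rest on fewer arrays, and the cause of the first was not tested. Leaving out HF+Ex 3, HF 1 and LF+CR 2, the outermost on the first component, gave 182, against 278 with the clock difference as a covariate (142 higher and 136 lower). Leaving out 1 array at a time gave 77 to 355 genes. With the replicate number as a block, although the numbers are not stated to pair the mice, the count was 177. In that fit 0 genes passed for the difference between runners and mice with no wheel. That difference, 1 gene otherwise, gave 0 with quantile normalization (Etnppl, adjusted p = 0.0571), with the mean over probe sets and without the arrays with pancreatic transcripts, 2 with array weights (Etnppl and Tmem141), and 0 to 1 without single arrays. With 0 calls, genes at an unadjusted p under 0.05 numbered 276 to 619 of 14201 in these limma fits, a share below 0.05 in each. Intensities near the dim threshold, as of Cyp2b9 in LF+Ex or Hsd3b5 in HF+Ex, give folds that move with the offset.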
